A study of Mus musculus with 24 samples.

Results

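Loss of the vitamin D receptor was examined in the ventral tegmental area (VTA) of mice that had received no opioid. The comparison used the 6 VTA libraries of mice given phosphate-buffered saline (PBS), out of 24 libraries in the series, and was defined by the sample labels alone: 3 Vdr-/- mice (numbered 7, 8 and 9) against 3 Vdr+/+ mice (numbered 1, 2 and 3). RNA from punches of both sides of the frozen brain was sequenced as paired-end reads with a strand-preserving kit. The other libraries came from the nucleus accumbens of the same mice and from both regions of other mice of the same genotypes given morphine at 5 mg/kg. The sources differ on whether mice given PBS were killed at the same time after injection as those given morphine or sooner.

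All mice were of the C57BL/6 background, and no restriction of the Vdr deletion to a cell type was given. Substrain, age and littermate status were not given in the sources used here. An effect of the receptor and of other DNA differences between the groups therefore cannot be told apart for genes on any chromosome. The food of Vdr-/- mice was enriched in calcium and lactose, and no such food was stated for Vdr+/+ mice, so diet and genotype cannot be told apart. Each punch held neurons, glia and vessels together, so fewer cells of a type and less RNA per cell cannot be told apart in any value below.

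The vitamin D receptor is a nuclear hormone receptor that binds DNA together with a retinoid X receptor when calcitriol, the active form of vitamin D, is bound. The VTA holds the dopamine neurons that project to the nucleus accumbens and takes part in reward, including that of opioids. These neurons make dopamine with tyrosine hydroxylase (Th) and dopa decarboxylase (Ddc), load it into vesicles with Slc18a2 and take it back up with the dopamine transporter Slc6a3.

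Values are reads per gene divided by the size factor of the library, termed normalized reads, and differences are Vdr-/- minus Vdr+/+ on log2(normalized reads + 1). The Vdr+/+ libraries held 18241100 to 24639035 reads counted on genes and the Vdr-/- libraries 12421680 (mouse 8) to 30184172 (mouse 9). Of 16425 genes with a mean of at least 10 normalized reads, 64 passed limma's test at a Benjamini-Hochberg adjusted p under 0.05 (0.39%), 42 higher in Vdr-/- mice (0.256%) and 22 lower (0.134%). At an unadjusted p under 0.05, 2338 genes passed. The median difference over all tested genes was −0.00, and the groups did not overlap for 1608 genes in the higher direction (9.79%) and 1763 in the lower (10.7%). Of the 64 genes, 52 were annotated as protein coding and 4 as processed pseudogenes. The count fell to between 13 and 20 when any library other than that of Vdr-/- mouse 8 was left out. It was 370 of 16430 genes without mouse 8. On counts recovered from the normalized reads, edgeR called 69 of 16425 genes and DESeq2 278 of 15970.

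**Figure D1:**
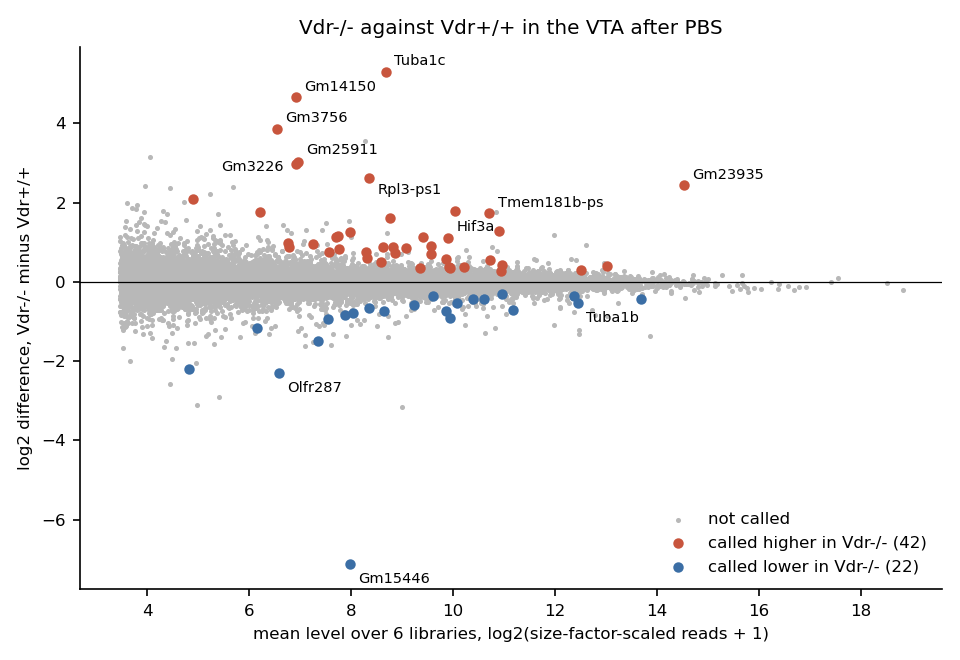
Log2 difference (Vdr-/- minus Vdr+/+) against mean level over the 6 VTA libraries, log2(normalized reads + 1), 1 point a gene. The 42 genes called higher are red and the 22 called lower are blue, from Tuba1c at 5.30 to Gm15446 at −7.13.

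The targeted gene could not serve as a check of the genotypes. Vdr (ENSMUSG00000022479, chromosome 15, 97854425 to 97910630 on the reverse strand, GRCm38) held 12, 10 and 2 reads in the Vdr+/+ libraries. It held 7, 3 and 17 reads in the Vdr-/- libraries. The groups overlapped, at 7.63 ± 5.06 normalized reads (SD, n = 3) against 7.93 ± 3.16 (SD, n = 3; exact permutation test, two-sided, p = 0.8, with 0.1 the smallest p possible). Reads outside the deleted part of a gene say nothing about the deletion, and where the reads fell within Vdr was not known.

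Tuba1c and pseudogenes that share sequence with alpha tubulins were among the widest increases. Tuba1c, which encodes an alpha tubulin isotype of the microtubules, lies 1.119 megabases from Vdr on chromosome 15 (99029891 to 99038110). Its normalized reads were 12.4, 24.5 and 22.8 in Vdr+/+ mice and 770.4, 876 and 738 in Vdr-/- mice. Every Vdr-/- library was far above every Vdr+/+ library, by 39.5-fold when taken from the log2 difference (5.30, SE 0.237, limma adjusted p = 8.83e-05). The processed pseudogenes Gm14150 on chromosome 2, Gm3756 on chromosome 9 and Gm3226 on chromosome 13 rose with it. Gm14150 was at 6.61, 8.92 and 9.10 in Vdr+/+ mice and at 232, 227 and 236 in Vdr-/- mice (log2 difference 4.67). Gm3756 and Gm3226 rose by 3.86 and 2.96 on the log2 scale.

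The main brain alpha tubulins moved the other way. Tuba1a, the most abundant of them, was at 15382, 15131 and 14860.3 normalized reads in Vdr+/+ mice and at 10849, 11798 and 11307 in Vdr-/- mice. Tuba1b was at 6841, 6793 and 6210.3 against 4692, 4349 and 4614. Neither gene overlapped between the genotypes, and the log2 differences were −0.42 (SE 0.0461, limma adjusted p = 0.0176) for Tuba1a and −0.54 (SE 0.0538, limma adjusted p = 0.012) for Tuba1b. These genes share sequence, so a read from a shared stretch cannot be assigned to 1 of them by its sequence. Of the 25-base words in the transcripts of Gm3226, Gm14150, Gm3756, Tuba1b and Tuba1a, 74.0%, 68.0%, 62.7%, 60.9% and 57.5% also occur in Tuba1c. Gm3226 and Gm14150 share still more with Tuba1b, which fell (78.9% and 76.3%). Summed over Tuba1a, Tuba1b, Tuba1c, Gm14150 and Gm3756, levels were 21113 to 22253 in Vdr+/+ mice and 16739.9 to 17408 in Vdr-/- mice, so the sum was lower in every Vdr-/- library.

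Other genes that share sequence with a second gene also separated the genotypes. Gm15446, annotated as protein coding on chromosome 5, was at 502, 500.4 and 493 normalized reads in Vdr+/+ mice and at 0, 9.66 and 3.28 in Vdr-/- mice. Its level in every Vdr-/- library was a small part of that in any Vdr+/+ library (log2 difference, which depends on the added 1, −7.13, SE 0.726, limma adjusted p = 0.013), while Zfp932, the gene with the most words in common with it (42.2%), was at 478, 513 and 479 against 479, 419 and 533. Rpl3-ps1, a pseudogene on chromosome X that shares 95.8% of its words with the ribosomal protein gene Rpl3, was at 88.4, 90.3 and 81.0 against 816, 443 and 434 (log2 difference 2.63). Rpl3 itself was at 5646, 6094 and 5674 against 3273, 4302 and 4499.5, and did not pass (limma adjusted p = 0.123). Tmem181b-ps on chromosome 17 was at 800.2, 718 and 788 against 2558, 2577 and 2589 (log2 difference 1.74, SE 0.0541, limma adjusted p = 2.04e-05), while Tmem181a, which holds 55.6% of the words of Tmem181b-ps, was at 1116, 1138 and 1096 against 1246, 1136 and 1224. The small-RNA loci Gm25911 and Gm23935, both annotated as miRNA, rose by 3.01 and 2.43, and all 33 words of Gm23935 occur in Gm24270. Gm25911 is an exception in this group, with 0.0% of its 32 words in any other gene.

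Several called genes lay on the chromosome of Vdr. On chromosome 15, 8 of 606 tested genes were called (1.32%), against 56 of 15819 on the other chromosomes (0.354%), and the difference between these shares was not tested. Within 10 megabases of Vdr 4 of 188 were called (2.13%), all between 0.2963 and 1.119 megabases away. Olfr287, an olfactory receptor gene and the nearest of them, was at 175, 148 and 150.2 normalized reads in Vdr+/+ mice. It was at 36.7, 27.4 and 29.5 in Vdr-/- mice, 4.95-fold lower when taken from the log2 difference. The others on the chromosome were farther from Vdr. Gpt, which encodes an alanine aminotransferase, was lower (−0.79), the antisense gene A730060N03Rik was higher (0.97), the stress-response transcription factor Atf4 was lower (−0.44) and the PAR bZIP factor Tef was higher (0.30). The strain of origin of the segment around Vdr was not given, so an effect of the receptor and of linked DNA cannot be told apart for these genes.

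**Figure D2:**
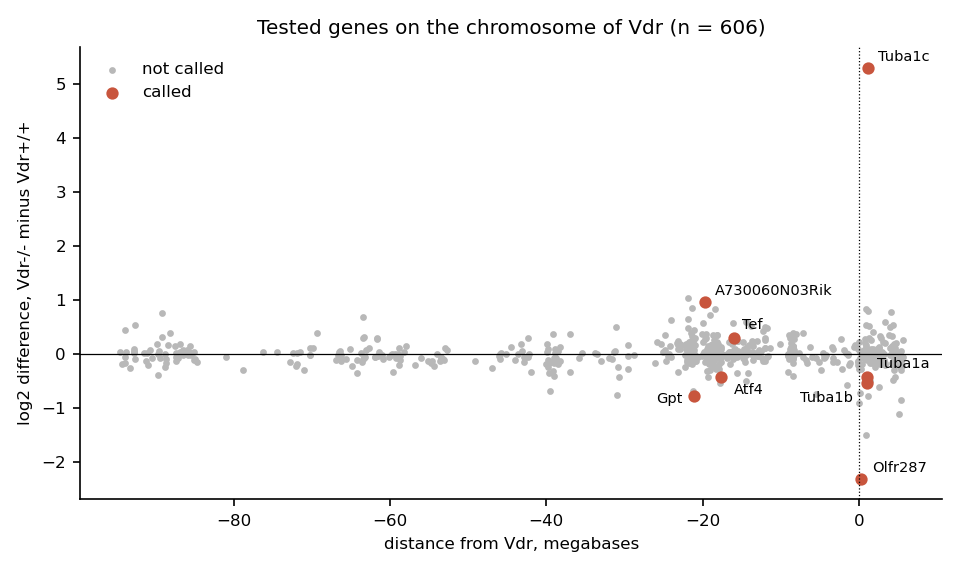
Log2 difference (Vdr-/- minus Vdr+/+) of the 606 tested genes on chromosome 15 against distance from Vdr in megabases. Of the 8 called genes in red, Olfr287, Tuba1a, Tuba1b and Tuba1c lie within 1.119 megabases of Vdr at the right-hand end.

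Among gene groups, the one with the most calls was that of glucocorticoid-responsive genes. Glucocorticoids, the adrenal stress hormones, act through a nuclear receptor that binds DNA and raises the transcription of such genes in neurons, glia and vessels. Of 24 listed genes, all tested, 10 rose and 0 fell (0.256% of all genes were called higher). All 24 differences were above 0, with a median of 0.83, and 19 did not overlap between the genotypes (9.79% of all genes). Summed levels of the list were 17386 to 22338 normalized reads in Vdr+/+ mice and 30337 to 33843 in Vdr-/- mice. The list had been assembled with results of these data known, so its direction is a description.

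Members with roles in oxygen, lipid and glucose metabolism were among those that rose. Hif3a, a hypoxia-inducible factor subunit, was at 608, 619.7 and 587 normalized reads in Vdr+/+ mice and at 1259, 1324 and 1359 in Vdr-/- mice (2.17-fold, SE of the log2 difference 0.0537, limma adjusted p = 9.76e-05). Plin4, a lipid droplet coat protein, was at 505, 488 and 389 against 1288, 2245 and 1399 (3.48-fold). Angptl4, a secreted inhibitor of lipoprotein lipase, was at 41.3, 26.7 and 29.1 against 117, 78.9 and 145 (3.39-fold). In none of these genes did the genotypes overlap. Txnip, which binds thioredoxin and restrains glucose uptake, rose by 0.91 and Sult1a1, a sulfotransferase, by 1.16.

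Others of the 10 called members have roles in cell cycle, signalling and inflammation. Cdkn1a, which encodes the cyclin-dependent kinase inhibitor p21 and is listed also among vitamin D target genes, was at 273, 216 and 160.2 against 618, 617 and 727 (3.07-fold, SE of the log2 difference 0.178, limma adjusted p = 0.0176). Arrdc2, an arrestin-domain protein, was at 143, 169 and 131 against 336, 359 and 362 (2.39-fold). Nfkbia, which holds NF-kappaB in the cytoplasm, rose by 0.87, the kinase Map3k6 by 0.95 and Ddit4, an inhibitor of mTORC1 signalling, by 0.70. All 10 genes had every Vdr-/- library above every Vdr+/+ library.

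Several members did not pass. Fkbp5, a co-chaperone of the glucocorticoid receptor, was at 613, 531 and 621 against 826, 1124 and 937 (log2 difference 0.70, SE 0.116, limma adjusted p = 0.0632). Per1 was at 0.36 (limma adjusted p = 0.0592), Klf15 at 0.43 (0.137) and Klf9 at 0.34 (0.144), each without overlap between the genotypes. Lcn2, named after its values were seen, was at 6.61, 2.23 and 7.28 in Vdr+/+ mice, at 9.19 in Vdr-/- mouse 9 and at 185 in Vdr-/- mouse 8. Of the 10 calls, between 2 and 4 were left when any library other than that of Vdr-/- mouse 8 was omitted, 12 genes of the list were called without mouse 8 and 2 were called without a trend in the variance. The median of the list stayed between 0.71 and 0.91 when each library was left out. Summed choroid plexus markers were lower in every Vdr-/- library (7612 to 8164 against 8331 to 8925). Of 6 tested markers 3 lay above 0 and 3 below, with a median of −0.05, so the sum does not describe them as a set. Under the filter on low values, Ttr held 5, 2 and 6 reads against 8, 17 and 0. Folr1 held 7, 2 and 4 reads against 7, 5 and 15. The part of choroid plexus in the values of this list was not tested.

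**Figure D3:**
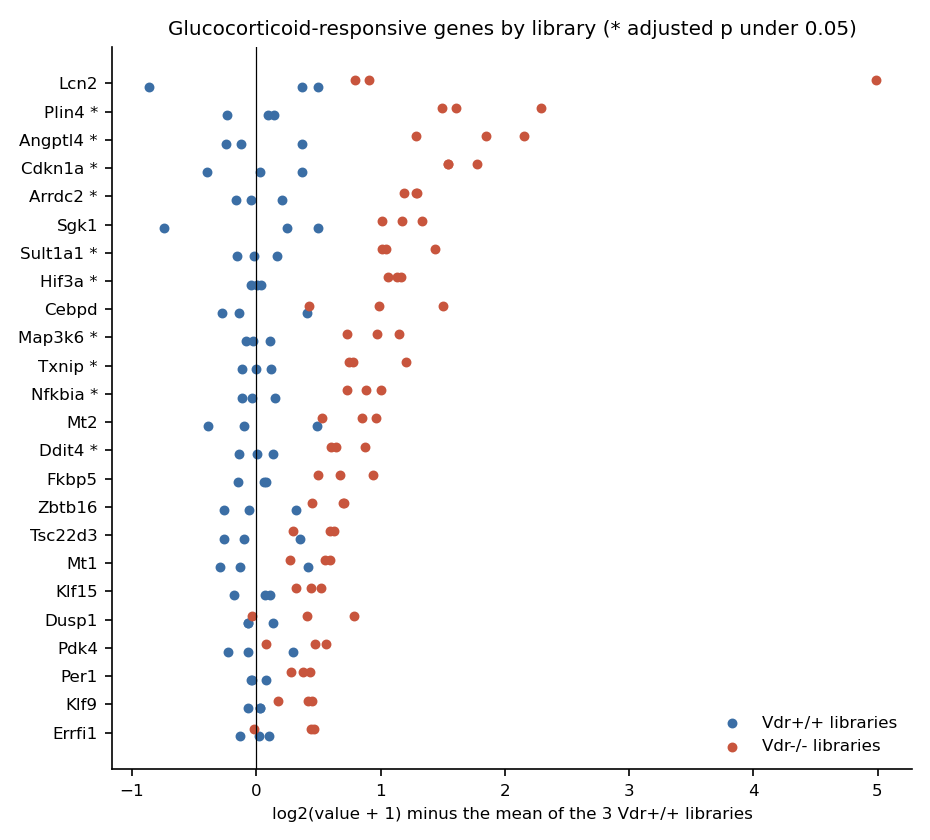
Log2(normalized reads + 1) of the 24 glucocorticoid-responsive genes in each library, relative to the mean of the 3 Vdr+/+ libraries, blue for Vdr+/+ and red for Vdr-/-. The 10 genes marked with an asterisk passed limma's test, and the single far point is Lcn2 in Vdr-/- mouse 8.

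Promoters of the list were read for the letters at the core of a glucocorticoid receptor site. The motif ACANNNTGT reads alike on both strands. It occurred in the 300 bases around the gene start (250 before, 50 after) of 642 of the 11885 tested genes that have a promoter in RefSeq (5.4%), of 4 of 29 called higher (13.8%), of 0 of 17 called lower and of 5 of 21 on the list (23.8%). The vitamin D receptor core GNTCANNNNGNTCA, searched on both strands, occurred in 77 of the 11885 (0.648%) and in 0 of the 29 higher and 17 lower called genes that have a promoter there. Map3k6 and Txnip were the list's called genes with the first motif. Their 250 bases before the start are shown with the motif in capitals because both rose in every Vdr-/- library, from RefSeq on GRCm38.p6, forward strand, at chr4:133240568-133240817 and chr3:96557707-96557956. The match begins 179 bases before the start of Map3k6 and 170 bases before that of Txnip, and is a match of letters in this window.
Map3k6: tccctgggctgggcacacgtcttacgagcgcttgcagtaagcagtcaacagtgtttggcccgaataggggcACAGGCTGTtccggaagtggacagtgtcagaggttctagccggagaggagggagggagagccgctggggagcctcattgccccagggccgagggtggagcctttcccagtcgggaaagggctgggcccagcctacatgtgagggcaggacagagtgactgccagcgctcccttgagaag
Txnip: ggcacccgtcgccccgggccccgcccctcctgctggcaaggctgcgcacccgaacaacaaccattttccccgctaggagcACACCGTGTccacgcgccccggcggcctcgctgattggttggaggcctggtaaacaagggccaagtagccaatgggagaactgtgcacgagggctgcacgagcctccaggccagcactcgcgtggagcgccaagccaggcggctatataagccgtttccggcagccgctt

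Genes of dopamine neurons were lower on average in Vdr-/- mice and varied widely among them, and 0 passed limma's test. Slc6a3 was at 23280.0, 18334 and 17520.3 normalized reads in Vdr+/+ mice and at 10273, 16543 and 2644 in Vdr-/- mice 7, 8 and 9. Th was at 8652, 6874 and 6634 against 4057, 6504 and 1181. Slc18a2 was at 8766, 7206 and 6939 against 3803, 6246 and 1176. For these 3 genes every Vdr-/- library lay below every Vdr+/+ library, but mouse 8 sat just under the Vdr+/+ range and mouse 9 far below it. The log2 differences were −1.35 (SE 0.574, limma adjusted p = 0.344) for Slc6a3, −1.22 (SE 0.531, adjusted p = 0.351) for Th and −1.32 (SE 0.516, adjusted p = 0.309) for Slc18a2. Ddc and the autoreceptor gene Drd2 overlapped between the genotypes, at −1.08 and −0.87.

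As groups, 0 of 12 genes of dopamine synthesis and handling and 0 of 20 genes of dopamine neuron identity were called by limma. At an unadjusted p under 0.05, 7 and 12 passed, against 14.2% of all genes. The lists were chosen with earlier results of these data known, so these shares are a description. Both lists had 9 members without overlap in the lower direction (10.7% of all genes), with median differences of −0.67 and −0.70. edgeR's quasi-likelihood test on recovered reads called 1 of the first list lower and 0 of the second (24 of all 16425 genes). DESeq2 called 2 of each lower (147 of all 15970 genes). Without Vdr-/- mouse 8, 2 of the first list and 6 of the second were called lower (248 of all 16430 genes). Among them were the transcription factor Nr4a2 (−0.83, limma adjusted p = 0.00489) and the potassium channel Kcnj6 (−0.89, adjusted p = 0.00826). Without mouse 8 and Vdr+/+ mouse 3 together 1 and 3 were called lower (120 of all 16388 genes). Mouse 8 was the Vdr-/- mouse nearest the Vdr+/+ range in Slc6a3, Th and Slc18a2. With any other single library left out, 0 genes of either list were called, and the medians came as near 0 as −0.48 and −0.42.

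Markers of other regions varied between the same libraries. Hcrt, the orexin peptide of the lateral hypothalamus, was at 1.65, 185 and 7.28 normalized reads in Vdr+/+ mice and at 1036, 9.66 and 603 in Vdr-/- mice. Vdr-/- mice 7 and 9, the lowest in dopamine genes, were the highest in Hcrt, and the genotypes overlapped. Summed over 12 hypothalamic and mammillary markers the range was 962 to 3523 in Vdr+/+ mice and 1349.7 to 8007 in Vdr-/- mice. Thalamic markers spanned 6519 to 8362 against 6729 to 15379, with Prkcd at 3855 in Vdr-/- mouse 9 alone. Cortical markers spanned 298 to 2822 against 429 to 3049, highest in Vdr+/+ mouse 3 and Vdr-/- mouse 8, and Slc17a7, the vesicular glutamate transporter of cortex, was at 80.1, 354 and 2432 against 86.8, 2627 and 922. Serotonin neuron markers spanned 294 to 651 against 268 to 303. These 4 lists held 0 calls by limma, edgeR or DESeq2. At an unadjusted p under 0.05, 1 serotonin marker and 0 of the others passed (14.2% of all genes). Without mouse 8, 1 hypothalamic marker was called higher. With any other single library left out 0 of these markers were called. Their part in the dopamine values was not tested.

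**Figure D4:**
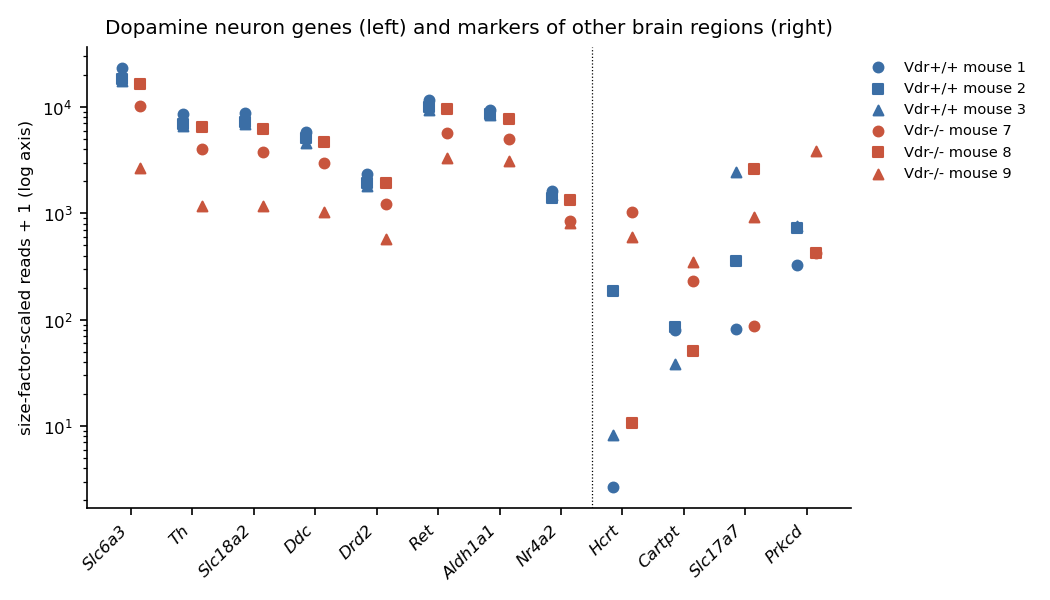
Normalized reads plus 1 on a log axis for 8 dopamine neuron genes (left of the dotted line) and for Hcrt, Cartpt, Slc17a7 and Prkcd, markers of other brain regions (right). Each symbol is 1 mouse, with Vdr-/- mouse 9 (red triangle) lowest in all 8 dopamine neuron genes and Vdr-/- mice 7 and 9 highest in Hcrt.

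Of 8 tested genes of the receptor complex and of vitamin D metabolism, 0 were called by limma or edgeR. At an unadjusted p under 0.05, 2 passed (25%, against 14.2% of all genes). DESeq2 called 1 higher, as did limma with the spread taken from 12 VTA libraries. Limma called 1 lower without mouse 8 and 0 with any other single library left out. The closest was Rxra, a retinoid X receptor that partners the vitamin D receptor, at 1121, 1116 and 1177 against 1376, 1347 and 1351 (log2 difference 0.25, limma adjusted p = 0.0869). Of 12 tested vitamin D and calcium target genes, Cdkn1a was the 1 called. It was not called without Vdr+/+ mouse 2, Vdr-/- mouse 7 or Vdr-/- mouse 9, or without a trend in the variance. Without mouse 8, Casr was also called, as lower (−0.79, limma adjusted p = 0.0348). Cyp24a1, the catabolic enzyme that vitamin D induces strongly in kidney and gut, held only 1 to 3 reads in Vdr+/+ libraries and 2 to 10 in Vdr-/- libraries, which is too few for a comparison. Cyp27b1, which makes calcitriol, held 0 to 6 reads in any library.

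Of 8 opioid receptor and peptide genes, 0 were called by limma or edgeR and DESeq2 called 1 lower. At an unadjusted p under 0.05, 1 passed (12.5%, against 14.2% of all genes). The mu opioid receptor gene Oprm1 was at 211, 215 and 204 against 171, 166 and 207. The kappa receptor gene Oprk1 was at 699, 745 and 584 against 472, 567 and 377 (log2 difference −0.53, SE 0.151, limma adjusted p = 0.198), without overlap, and was called without mouse 8 (−0.67, adjusted p = 0.047). With any other single library left out 0 of the 8 genes were called. Of 30 tested activity-regulated genes, 0 were called by limma or edgeR, and the median was 0.05. At an unadjusted p under 0.05, 2 passed (6.67%). DESeq2 called 1 of the 30 higher, and so did limma without mouse 8, while limma called 0 with any other single library left out. Fos, an immediate early gene, was at 339, 249 and 257 against 232, 169 and 271, with the genotypes overlapping (−0.34, limma adjusted p = 0.446).

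Single genes of the clock, stress and lipid lists were called by limma, against 0.256% of all genes called higher and 0.134% called lower. Of 16 clock genes Tef and Ciart rose, and Ciart, a repressor of the clock, was at 229, 225 and 239 against 364, 354 and 465 (log2 difference 0.76, SE 0.112, limma adjusted p = 0.0471). Of 16 genes of the endoplasmic reticulum stress list Atf4 alone was called, at 1503, 1597 and 1528 against 1084, 1214 and 1123, and 9 of the 16 did not overlap in the lower direction (10.7% of all genes). Of 20 cholesterol synthesis genes Hmgcs1, an early enzyme of the pathway, fell from 5779.5, 6313 and 5771 to 4599, 4848 and 4524, and 18 of the 20 lay below 0 with a median of −0.18. Of 17 oligodendrocyte genes Ugt8a, which makes the myelin lipid galactosylceramide, was called lower at 2689.5, 3104 and 2849 against 1509.7, 2041 and 1724, while the list's summed level was 267172 to 295089 against 265109 to 274146. Of the 16, 16, 20 and 17 genes, 6, 9, 9 and 7 passed at an unadjusted p under 0.05 (14.2% of all genes). In these lists 0 genes were called when any library other than that of mouse 8 was left out, or without a trend in the variance. By limma and edgeR 0 calls fell in 12 astrocyte genes (median −0.20), 14 microglial genes (−0.17), 13 endothelial genes (−0.05) and 10 mural and fibroblast genes (−0.06), of which 6, 3, 7 and 1 passed at an unadjusted p under 0.05. DESeq2 called 1 astrocyte and 3 endothelial genes, and without mouse 8 limma called 4 astrocyte, 1 microglial and 1 endothelial gene. With any other single library left out limma called 0 astrocyte, microglial or endothelial genes. Aqp4, the astrocyte water channel, had the largest astrocyte difference at 6268, 6240.5 and 7173 against 2823, 5172 and 3927 (−0.76, limma adjusted p = 0.172), and was called without mouse 8 (−0.98, adjusted p = 0.0168).

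Other called genes belonged to none of the lists. For these too, an effect of the receptor and of other DNA differences between the groups cannot be told apart. Gabra2, a GABA-A receptor subunit, was at 1068, 1059 and 1192 against 2463, 3160.1 and 2530.3 (2.44-fold, SE of the log2 difference 0.0985, limma adjusted p = 0.00238). Klrg2, a lectin-like receptor, rose from between 9.08 and 11.8 to between 35.4 and 58.4 normalized reads. Ide, the insulin-degrading enzyme, was at 1523, 999.8 and 1360.0 against 664, 676 and 676, and Btaf1, which removes TATA-binding protein from DNA and lies near it on chromosome 19, was at 1292, 966 and 1206 against 713, 691 and 663. Lower too were Gm16299 (−2.19), Tmem267 (−1.49), the DNA sensor Aim2 (−1.17), Gm10524 (−0.93), the endothelial receptor Cd93 (−0.83), Mob3b (−0.73), the protease inhibitor Serpinb1a (−0.65) and Vwc2l (−0.59). Of the 23 called genes outside the naming rule, Wdfy1 and Cd59a are named after their values were seen: Wdfy1, an endosomal adaptor, was at 414, 434 and 431 against 954, 918 and 939, and Cd59a, a complement inhibitor, at 357, 405 and 379.6 against 656, 701 and 710.0. Of the other genes outside the rule, all named likewise after their values were seen, the higher ones included the phospholipases Pla2g3 (1.13) and Pla2g4e (0.75), the GABA receptor subunit gene Gabrr2 (0.88), the purine enzyme Xdh (0.72), the lipase Pnpla2 (0.58) and the kinesin Kif17 (0.51). The lower ones were the long noncoding Sox2ot (−0.53), Pik3c2b (−0.44), Rab10os (−0.36) and Bex2 (−0.32).

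The remaining lists held 0 calls by limma or edgeR. DESeq2 called 1 dopamine receptor signalling gene, 3 heat shock and cold-inducible genes and 1 interferon-stimulated gene. Without mouse 8 limma called 2 heat shock and cold-inducible genes, Cirbp (0.46, adjusted p = 0.0263) and Hspa8 (−0.29, adjusted p = 0.047), 1 neurotrophin or receptor gene and 1 habenular or interpeduncular gene. With any other single library left out 0 genes of these lists were called. At an unadjusted p under 0.05, 14.2% of all genes passed. Of the dopamine receptor signalling genes 2 passed (12.5%). So did 5 heat shock and cold-inducible genes (50%) and 3 habenular and interpeduncular genes (60%). Among pathways, 16 dopamine receptor signalling genes had a median of 0.15, with 15 above 0, and 10 heat shock and cold-inducible genes had a median of −0.24, with 8 below 0. The 12 neurotrophin and receptor genes (−0.05), 8 voltage-gated calcium channel genes (0.06) and 11 interferon-stimulated genes (−0.06) lay close to the median of all genes. The same held for 91 nuclear (−0.02) and 11 mitochondrial (−0.05) genes of oxidative phosphorylation and for 82 cytosolic ribosomal protein genes (−0.01). Among neuronal and regional markers, medians were −0.02 for 10 midbrain GABA neuron genes, 0.22 for 6 glutamate neuron genes, 0.17 for 7 hippocampal genes and −0.53 for 5 habenular and interpeduncular genes.

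The same genotype contrast in other mice was available from the VTA after morphine, where 10 of 16029 tested genes were called (0.0624%). All 64 genes were tested there and 51 differed in the same direction, 34 of 42 that were higher and 17 of 22 that were lower. The share of all tested genes with the same direction in both comparisons was not counted. The genes called in both were Btaf1, Cd59a, Gm14150, Gm15446, Ide, Olfr287, Rpl3-ps1, Tmem181b-ps and Tuba1c, which make 14.1% of the 64 and 90% of the 10. Their sizes were close: Tuba1c differed by 5.30 after PBS and 5.77 after morphine, Gm15446 by −7.13 and −7.06, and Ide by −0.92 and −0.98.

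The glucocorticoid-responsive and dopamine genes had other values after morphine, and the time after injection may differ between these mice. The median of the glucocorticoid list was 0.83 after PBS and 0.09 after morphine, where 0 of 23 tested were called. Hif3a was at 1.12 after PBS and 0.23 after morphine, Cdkn1a at 1.62 and 0.06, and Nfkbia at 0.87 and −0.23. Plin4 was at 1.80 after PBS and 0.83 after morphine, Sult1a1 at 1.16 and 0.74, and Fkbp5 at 0.70 and 0.49. The medians of dopamine synthesis and handling were −0.67 and 0.33, and those of dopamine neuron identity −0.70 and 0.81. The difference between the effects was tested across 12 VTA libraries, with 0 of 15785 genes past limma's adjusted p under 0.05 (0%) and 1710 at an unadjusted p under 0.05. The latter included 12 of 23 glucocorticoid-responsive, 7 of 12 dopamine synthesis and 18 of 20 dopamine identity genes (10.8% of all genes). The lists were chosen with earlier results of these data known, and the PBS values enter this difference too, so these shares are a description. Without Vdr-/- PBS mouse 8 the difference passed for 49 genes, 43 of them lower after PBS, among them Kcnj6 (−1.23, limma adjusted p = 0.0107) and Nr4a2 (−1.73, adjusted p = 0.0376). With any other of the 12 libraries left out the difference passed for 0 genes.

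In the nucleus accumbens of the same mice 11 of 15933 tested genes were called between the genotypes (0.069%). Of the 64 genes 63 were tested there and 60 differed in the same direction, and the share over all tested genes was not counted. Called in both regions were Gabra2, Gm14150, Gm15446, Gm3226, Gm3756, Olfr287, Rpl3-ps1, Tmem181b-ps and Tuba1c, which make 14.1% of the 64 and 81.8% of the 11. The median of the glucocorticoid list was 0.46 in the nucleus accumbens, where 22 of 24 differences lay above 0 and 0 were called, with Hif3a at 0.88, Plin4 at 1.73, Sult1a1 at 0.91, Fkbp5 at 0.48, Cdkn1a at 0.33 and Nfkbia at 0.31. Both regions came from the same animals, so they do not replicate each other. The difference between regions within mice passed for 0 of 15396 genes (0%) by limma, with 836 at an unadjusted p under 0.05.

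**Figure D5:**
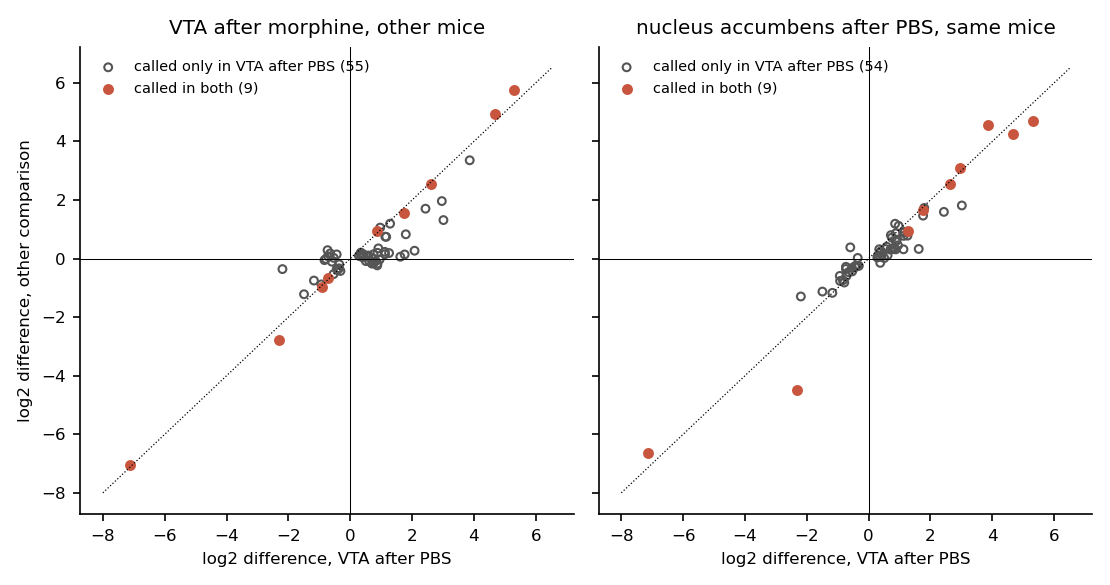
Log2 differences (Vdr-/- minus Vdr+/+) of the genes called in the VTA after PBS against those in the VTA after morphine (left, 64 genes) and in the nucleus accumbens after PBS (right, 63 genes), with the dotted line at equal values. Filled points are the 9 genes called in both comparisons of each panel, which lie near the line in the left panel.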

How the data were processed

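Per the submitters' notes the authors trimmed with Trimmomatic 0.36 and aligned with STAR 2.4.2a, against GENCODE GRCm38, which also counted reads per gene. The strand setting of the counts was not given in the sources used here, so reads of an antisense gene and its partner cannot be told apart. The deposited signal values are those counts divided by DESeq2 size factors within each table, and 8 tables were deposited, of which 3 were used. In the table of the 6 libraries all values were whole reads to within 0.01 once rescaled, so counts were recovered for edgeR 4.0.16 and DESeq2 1.42.0. The main test was limma 3.58.1 (eBayes with trend, R 4.3.3), two-sided, applied to log2(value + 1) of genes whose mean was at least 10, with Benjamini-Hochberg adjustment at 0.05. The PBS and morphine effects were compared across 12 VTA libraries, and the regions through within-mouse differences, with the variance trend on mean level. The scripts were tested on simulated data. Tables were normalized separately, so no level was compared between them. Nothing states that mice came from separate litters, so p-values measure the spread between these mice. Within each genotype every pair of libraries differed beyond counting error (chi-square per degree of freedom 5.11 to 14.2), so none repeated the counts of another in its group. Pairs across genotypes were not compared, and the check would not detect a mouse prepared again.

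Gene positions come from GENCODE M21 (GRCm38) and promoters from RefSeq. Named genes were the 15 largest changes in each direction among called genes without overlap, Vdr and called genes on its chromosome, called members of 36 lists with up to 4 others of each, and Th, Slc6a3, Ddc, Slc18a2, Drd2, Oprm1, Fos and Fkbp5. Members and lists were chosen with earlier results of these data known. The authors' comparison statistics were not used. Alternatives were other tools, pseudocounts, filters, scalings and variance models, and omitted libraries. Descriptions and figures used Python 3.11.15 (pandas 2.3.3, numpy 2.4.6, matplotlib 3.10.9, scipy 1.17.1). The values of 1 listed gene are not reported here.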

Additional observations from a re-analysis of the deposited data

Results flagged for a closer look

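For 8 of 177 named genes the genotypes separated without overlap in the VTA in opposite directions after PBS and after morphine, being lower in Vdr-/- mice after PBS and higher after morphine. These are 4.52% of the named genes, which were chosen partly for their values, and 175 of all 15785 genes compared did so (1.11%). The log2 differences of the effects (PBS minus morphine) were −3.98 for Aldh1a7, −0.79 for Arc, −3.12 for Chrna5, −0.99 for Kcnj6, −1.50 for Nr4a2, −2.61 for Slc18a2, −3.96 for Slc6a3 and −2.63 for Th. By limma across all genes 0 of these differences passed, with adjusted p from 0.28 to 0.31. Within the morphine table Slc6a3 was at 467, 2597 and 234 normalized reads in Vdr+/+ mice and at 4002, 2625 and 6154 in Vdr-/- mice, so the single Vdr+/+ mouse with the highest level lay next to the lowest Vdr-/- mouse.

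For 2 of 164 named genes the genotypes separated in opposite directions in the VTA and the nucleus accumbens after PBS, lower in the VTA of Vdr-/- mice and higher in the nucleus accumbens (1.22%, against 77 of 15396 genes or 0.5%). The differences of the effects (VTA minus nucleus accumbens) were −0.80 for Oprk1 and −2.60 for Slc6a3, each with an adjusted p of 0.826 by limma. Slc6a3 held only 13.7 to 77.5 normalized reads in nucleus accumbens libraries.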

How the results depend on the processing

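With 3 mice a group, most calls were lost when any library but that of Vdr-/- mouse 8 was left out, without which all 64 were still called. The 64 calls became 278 with DESeq2, 17 without a trend in the variance, 192 without Vdr+/+ mouse 3 and Vdr-/- mouse 8 together, and 13 to 370 when each library was left out. Leaving out Vdr-/- mouse 8 gave the 370, and each other library 13 to 20. With edgeR's quasi-likelihood test the count was 69, and under the other alternatives it lay between 47 and 79. Of the 64 genes, 0 changed direction under any of 17 alternatives. The 10 genes called under all of them were Arrdc2, Cd59a, Gabra2, Gm14150, Gm3226, Gm3756, Hif3a, Olfr287, Tmem181b-ps and Tuba1c. The difference between PBS and morphine held 0 to 49 calls when each of 12 libraries was left out, with 49 only without Vdr-/- PBS mouse 8. Leave-one-out checks added after seeing the data gave 5, 6, 36 and 49 genes for the VTA after morphine without Vdr-/- mouse 2.1, Vdr+/+ mouse 1.2, Vdr-/- mouse 2.0 and Vdr+/+ mouse 1.1, and 2 to 28 for the nucleus accumbens after PBS, with 28 without Vdr+/+ mouse 2 and 2 to 6 without mouse 3, 7, 8 or 9. No paired analysis was possible for the genotypes because the mice share no numbers between them, and the difference between regions without the replicate block (12 libraries as separate samples) held 0 calls, as with the block.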
